A study of Mus musculus with 15 samples.

Results

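The immediate early genes are the genes that neurons transcribe within minutes of synaptic activity, before any new protein has to be made. The 48 genes described here were chosen by name and are called early genes by that list alone. How fast each of them is induced was not measured. All of them were found among the 21938 protein-coding genes of the GENCODE M21 annotation on mouse build mm10 (GRCm38). For each gene, the summits of H3K4me3 peaks within 1 kb of any annotated transcription start site (TSS) of the gene were taken as promoter summits, and those elsewhere in the gene or within 20 kb of its ends were recorded beside them. The series profiled H3K4me3, the trimethylation of lysine 4 of histone H3, by ChIP-seq in amygdala nuclei of adult male mice, F1 hybrids of 129S1/SvImJ and C57BL/6J parents, with 20000 nuclei per reaction. Besides Kmt2a-HET, Kdm5c-KO and DM (double mutant) animals it covered WT mice, which carry neither mutation and are the group described here. The peaks of the 2 WT mice were deposited as 1 list of 24162 summits called against 1 WT input. Each summit spans 1 bp and carries a score, read here as −log10 of the peak caller's q-value. A higher score thus means stronger evidence of enrichment over input, which is not the size of the enrichment. Strong and weak refer to this score below. With both mice in 1 list there is no spread between replicates, the number of reads behind each score is not given, and no difference between scores can be set against replicate error. Counts and medians over the immediate early genes are therefore set beside the same values over all protein-coding genes, with no p-value.

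Immediate early genes are held in a state from which transcription can start at once. Calcium entering through synaptic receptors and channels activates kinases, these act on transcription factors already bound at the promoters (CREB at the cyclic AMP response element or CRE, SRF and its partners at the CArG box, and the MEF2 factors), and the products of the early genes, many of them transcription factors, then control later genes and damp the signal. H3K4me3 is laid down by methyltransferases of the KMT2 family, to which KMT2A belongs, and removed by KDM5 demethylases such as KDM5C. It is found on the nucleosomes next to the TSSs of genes that are active or ready to be, and it is not a measure of transcript amount. In the amygdala, Fos, Arc and Npas4 are widely used to mark the neurons engaged by fear learning. The labels name no stimulation before dissection.

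The tissue was checked against its markers. Of 7 neuronal marker genes, 6 had a promoter summit, with a median best score of 209. The 5 astrocyte, 5 oligodendrocyte, 5 endothelial and 5 microglia markers all had one, with median best scores of 67.1, 102.8, 22.8 and 18.6. Of 8 genes specific to other organs, 1 had a promoter summit, with a score of 9.05. Over all protein-coding genes, 64.7% had a promoter summit. Fewer cells of a type and less of the mark per cell cannot be told apart in a list from whole tissue, and the part of each cell type in the scores below was not tested.

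A promoter summit was present at 46 of the 48 immediate early genes (95.8%), where 64.7% of all protein-coding genes had one. As a group, the marked early genes did not score above marked genes in general, although single genes did. Their best promoter scores had a median of 172 (95% interval 127.6 to 207.7), with quartiles of 112.1 and 221. The 14197 marked protein-coding genes had a median of 194.6, with quartiles of 129.8 and 230.2. Of the 46, 17 (37%, 95% interval 24.5 to 51.4%) scored at or above that median, a level that 50.5% of all marked genes reached because of ties. Both intervals held the value of all marked genes. They reflect only the spread among the chosen genes, which are not replicates, and hold no error between mice. Whether the early genes score lower was therefore not tested. The scores ran from 47.7 at Fosb to 278 at Klf6, or from higher than 11.1% to higher than 97.3% of marked genes. The medians differed by role, from 100.8 for the AP-1 subunits to 153 for the EGR and NR4A transcription factors, 154 for the synaptic and secreted effectors, 180.5 for the phosphatases and feedback regulators, and 191 for the other transcription regulators.

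**Figure D1:**
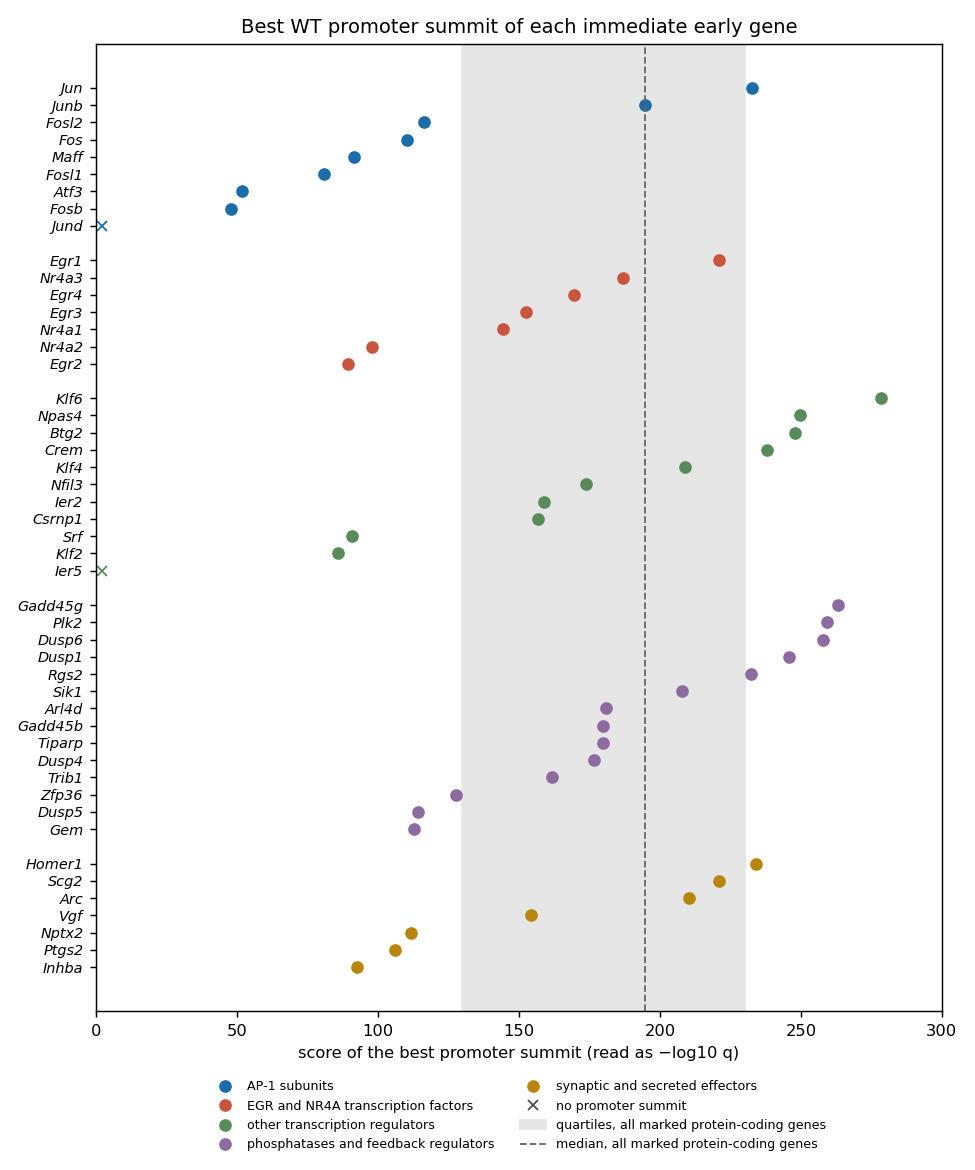
Best H3K4me3 promoter score of each immediate early gene in the pooled WT list. Each point is 1 gene, the x axis is the score of its highest summit within 1 kb of its TSSs (read as −log10 q), colours are the role groups, crosses are genes with no promoter summit, and the band and dashed line give the quartiles and median of all marked protein-coding genes. Of the 8 marked AP-1 subunits, only Jun and Junb reach the dashed line at 194.6, while Klf6 is the highest point at 278.

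The best summit usually lay a short way into the gene, on the side where the first nucleosomes of the transcribed region sit. Its offset from the nearest TSS had a median of 213 bp downstream, with quartiles from 38 bp upstream to 441 bp downstream, beside a median of 171 bp and quartiles of 49 and 327 bp for all marked genes. Measured from the nearest TSS, the early genes thus had the wider spread on both sides. An upstream summit can still lie inside the gene, short of an internal TSS. Those of Plk2, Junb, Egr2 and Dusp1 lay 562, 1289, 2194 and 54349 bp inside the 5′ end. With the outermost TSS alone the median was 248 bp for the early genes and 276 bp for all marked genes, so the order of the medians turned. The best summit was upstream of the nearest TSS at 12 of 46 genes (26.1%, against 20.7% of all marked genes) and over 400 bp downstream at 13 (28.3%, against 18.8%). The farthest upstream was that of Klf4, at 897 bp, and the farthest downstream that of Sik1, at 699 bp.

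The promoter sequences were read for the binding motifs of the factors that receive the activity signal. RefSeq windows of 300 bases, from 250 bases before the start to 50 after it, were at hand for 36 of the early genes and 16522 protein-coding genes, and both strands were searched. The windows of Arc, Crem, Dusp4, Egr1, Egr3, Fosl1, Gem, Ier2, Nptx2, Sik1, Trib1 and Vgf were not analysed here. The full CRE, TGACGTCA, was present in 6 of 36 windows (16.7%), where 2.43% of all windows and 3.3% of the 10981 windows of marked genes held it. Those 6 genes were Arl4d, Btg2, Dusp1, Maff, Plk2 and Scg2, of which Maff is the only transcription factor that binds DNA itself. The 5-base core of the CRE, TGACG, which every full CRE also holds, was present in 24 windows (66.7%, against 24.5% of all and 31.4% of marked windows). The CArG box was present in 4 windows (11.1%, against 1.48% and 1.19%), at Dusp5, Egr2, Srf and Zfp36, so that Srf, the gene of the factor that binds the CArG box, holds the motif itself. The MEF2 motif was present in 5 windows (13.9%, against 2.8% and 1.41%), at Atf3, Inhba, Jun, Klf2 and Nr4a2. TATAAA, the letters of a TATA box, was present in 7 windows (19.4%, against 12.6% and 6.28%), at Fos, Gadd45b, Gadd45g, Inhba, Junb, Nr4a2 and Srf. In windows extended to 1000 bases before the start that order turned, with TATAAA at 38.9% of the early genes, 44.9% of all and 37% of marked genes. In the 300-base windows its place varied. It began 27, 33, 38 and 46 bases before the start at Gadd45g, Fos, Srf and Gadd45b. At Inhba and Nr4a2 it began 91 and 164 bases before the start, and at Junb it did not lie before the start. The AP-1 motif TGANTCA was present in 0 of 36 windows, against 6.87% and 4.22%, and in 8 windows once they were extended to 1000 bases before the start, where 24.4% of all windows of that length held it. The ratio of observed to expected CpG had a median of 0.857 in the windows of the early genes, 0.767 in those of marked genes and 0.613 in all windows. Some windows lie away from the best summit. The RefSeq start of Nr4a1 is an internal TSS, far from its best summit, and those of Dusp6 and Junb are 1436 and 1319 bp from theirs. The RefSeq start of Jund, at chr8:70697739, lies upstream of its GENCODE TSS at 70698949. The Jund window had the lowest CpG ratio of the early genes, 0.184, and is counted among the 36. A match is a description of these letters in this window, and binding was not measured.

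**Figure D2:**
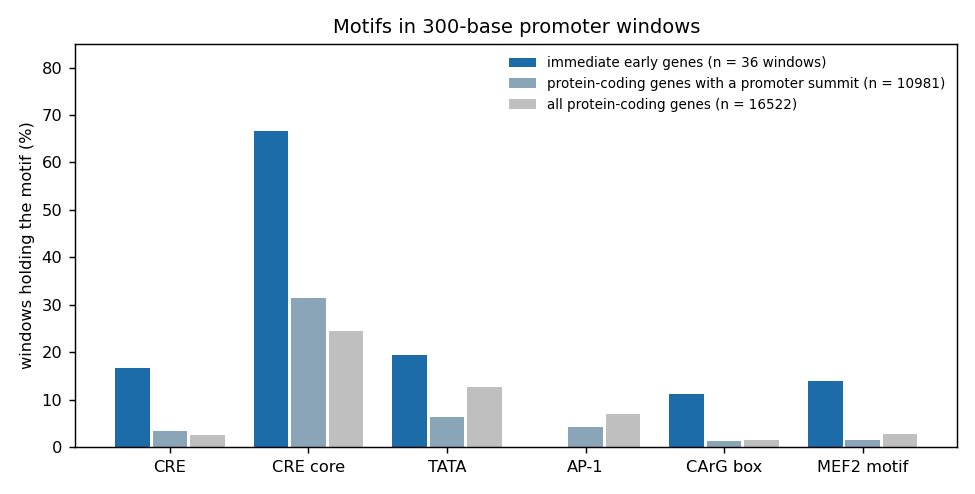
Share of 300-base promoter windows that hold each motif on either strand. Bars from left to right in each set are the immediate early genes (36 windows), protein-coding genes with a promoter summit (10981 windows) and all protein-coding genes (16522 windows), and the y axis is the share in percent. The CRE core stands at 66.7%, 31.4% and 24.5%, and the AP-1 motif at 0 for the early genes.

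The 250 bases before the RefSeq start are printed for Gadd45g, Homer1 and Jun, each the highest scoring gene of its role group, and for 3 genes with a full CRE. Klf6 and Nr4a3 are left out because an annotated exon overlaps the window, and Maff because the sequences shown were limited to 10, taken in order of score. Capitals mark every letter that belongs to 1 of the motifs searched, and each sequence is given 5′ to 3′ on the strand of its gene, on GRCm38. Gadd45g (chr13:51846425-51846674, plus strand, best score 263) has TATAAA 27 bases before the start. Homer1 (chr13:93303507-93303756, plus strand, score 234) has 3 copies of the CRE core, 56, 40 and 14 bases before it. Jun (chr4:95052223-95052472, minus strand, score 233) has a MEF2 motif 33 bases before it. Plk2 (chr13:110394794-110395043, plus strand, score 259), Btg2 (chr1:134079156-134079405, minus strand, score 248) and Arl4d (chr11:101665291-101665540, plus strand, score 181) have a full CRE 62, 166 and 26 bases before the start.
Gadd45g: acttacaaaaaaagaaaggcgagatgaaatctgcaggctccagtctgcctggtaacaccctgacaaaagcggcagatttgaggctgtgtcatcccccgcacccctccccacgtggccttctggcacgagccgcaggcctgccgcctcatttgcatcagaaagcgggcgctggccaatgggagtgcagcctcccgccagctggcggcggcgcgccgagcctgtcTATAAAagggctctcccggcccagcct
Homer1: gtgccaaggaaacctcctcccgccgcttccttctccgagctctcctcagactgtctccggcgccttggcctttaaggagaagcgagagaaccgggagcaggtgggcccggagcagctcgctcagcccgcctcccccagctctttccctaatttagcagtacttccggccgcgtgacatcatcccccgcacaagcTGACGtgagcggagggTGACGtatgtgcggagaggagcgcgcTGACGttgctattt
Jun: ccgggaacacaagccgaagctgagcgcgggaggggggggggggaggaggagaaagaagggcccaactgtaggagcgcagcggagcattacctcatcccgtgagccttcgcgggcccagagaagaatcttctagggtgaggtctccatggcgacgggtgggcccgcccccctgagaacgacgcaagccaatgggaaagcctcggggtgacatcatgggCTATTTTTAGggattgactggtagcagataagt
Plk2: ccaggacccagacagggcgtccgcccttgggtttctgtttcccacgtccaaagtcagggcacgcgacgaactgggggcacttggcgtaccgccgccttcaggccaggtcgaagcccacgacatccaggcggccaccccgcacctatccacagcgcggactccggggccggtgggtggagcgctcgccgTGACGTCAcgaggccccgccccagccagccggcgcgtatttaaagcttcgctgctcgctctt
Btg2: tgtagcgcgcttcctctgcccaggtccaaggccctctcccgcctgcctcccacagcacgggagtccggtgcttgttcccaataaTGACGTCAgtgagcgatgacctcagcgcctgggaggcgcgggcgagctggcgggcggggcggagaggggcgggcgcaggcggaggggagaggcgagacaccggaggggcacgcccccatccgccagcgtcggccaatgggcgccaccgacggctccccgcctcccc
Arl4d: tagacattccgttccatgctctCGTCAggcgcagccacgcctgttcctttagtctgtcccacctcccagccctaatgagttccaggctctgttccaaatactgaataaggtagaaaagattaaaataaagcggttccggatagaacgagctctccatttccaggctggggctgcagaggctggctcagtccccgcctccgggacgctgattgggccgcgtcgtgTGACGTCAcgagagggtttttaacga

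Shorter stretches of 30 bases show the full CREs of Dusp1 (chr17:26508596-26508625, minus strand) and Scg2 (chr1:79440075-79440104, minus strand), 143 and 68 bases before the RefSeq start. They also show the CArG boxes of Zfp36 (chr7:28379267-28379296, minus strand), 58 bases before it, and of Dusp5 (chr19:53529053-53529082, plus strand), where a pair of CArG boxes follow each other without a gap, 82 and 72 bases before it.
Dusp1: gtagggcgggTGACGTCAccgcccggtcac
Scg2: gctgagccggTGACGTCAgcgtggaatgcg
Zfp36: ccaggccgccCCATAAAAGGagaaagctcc
Dusp5: ggggaaatacCCATATTTGGCCTTATATGG

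The AP-1 subunits are the FOS and JUN proteins and their relatives, which pair to bind DNA, and as a group they had the lowest promoter scores. Jun, the central partner of the complex, scored 233, higher than 77.2% of marked genes, at a summit on chr4:95051600 that lies 66 bp from the TSS of the antisense gene Junos. Junb, a JUN relative, scored 194.8, and Fosl2 and Fos scored 116 and 110.2. Maff, a small MAF protein, scored 91.3, and Fosl1 80.9. The lowest were Atf3, a stress-induced member of the ATF family, at 51.8, and Fosb, whose shorter product accumulates with repeated activity, at 47.7, higher than only 11.8% and 11.1% of marked genes. Fos, the most used marker of neuronal activity, thus exceeded no more than 21.1% of marked genes at its promoter.

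Fosb and Jund had their strong summit just beyond the promoter window. Fosb carried a summit of 166.9 in an exon at chr7:19308451, 1149 bp from its nearest TSS, against 47.7 at its promoter. Jund had no promoter summit, and its only summit, 213 at chr8:70699973, lay in its single exon 1024 bp from the TSS and 107 bp from the TSS of the antisense gene Gm11175. Just inside the 1 kb limit were the best summits of Junb, 887 bp from an internal TSS and 1289 bp downstream of the 5′ end of the gene, and of Klf4.

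The strongest flank summit of the early genes was beside Fos. Fos is known to be controlled by activity-dependent enhancers on both sides of the gene. It had 3 summits in its flanks, of which 1 at chr12:85485832, 8559 bp past the 3′ end, scored 202, above the 110.2 of the Fos promoter itself. The other Fos flank summits lay 1449 and 18229 bp upstream and scored 42.1 and 87.6. Fosb had flank summits 9882 bp upstream (114.9) and 17145 bp upstream (48.5), so that its body and both flank summits all scored above its promoter. Junb had 3 upstream, at 1086, 1661 and 6989 bp, with scores of 65.2, 32.4 and 123.

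The EGR proteins are zinc-finger factors and the NR4A proteins are orphan nuclear receptors, and both families are induced within minutes of activity. All 7 genes had a promoter summit, and 1 of them, Egr1, reached the median of marked genes, with a score of 221. Nr4a3 followed with 187 and Egr4 with 169.6. Egr3 scored 153 and Nr4a1 144. Nr4a2, a factor of dopamine neurons, scored 97.9, and Egr2, a factor of myelination, 89.4. Within the EGR family the scores thus fell from 221 to 89.4.

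The NR4A genes were marked at several places each. Nr4a1 had 3 promoter summits, at 144, 112.3 and 36.3, the second of which lay 12699 bp from the 5′ end at an internal TSS. Nr4a2 had 3, at 97.9, 90.8 and 17.7, the second 9183 bp from its 5′ end, and 3 weak body summits between 2.11 and 10.7. Nr4a3 had 2, at 187 and 17.4. All 3 genes of the family thus had 2 or more promoter summits, which 11 of the 48 early genes (22.9%) and 11.7% of all protein-coding genes had. With a promoter window of 500 bp those were 4 of 48 and 7.59%. In the flanks, Nr4a3 had a summit of 181.7 at 2291 bp upstream of its 5′ end, close to the score of its promoter. Nr4a1 had 3, at 7605, 13134 and 15125 bp upstream, with scores of 99.0, 34.9 and 18.3. Egr3 had 1 of 98.7 at 2088 bp upstream, and Egr1 1 of 9.34 at 4642 bp.

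**Figure D3:**
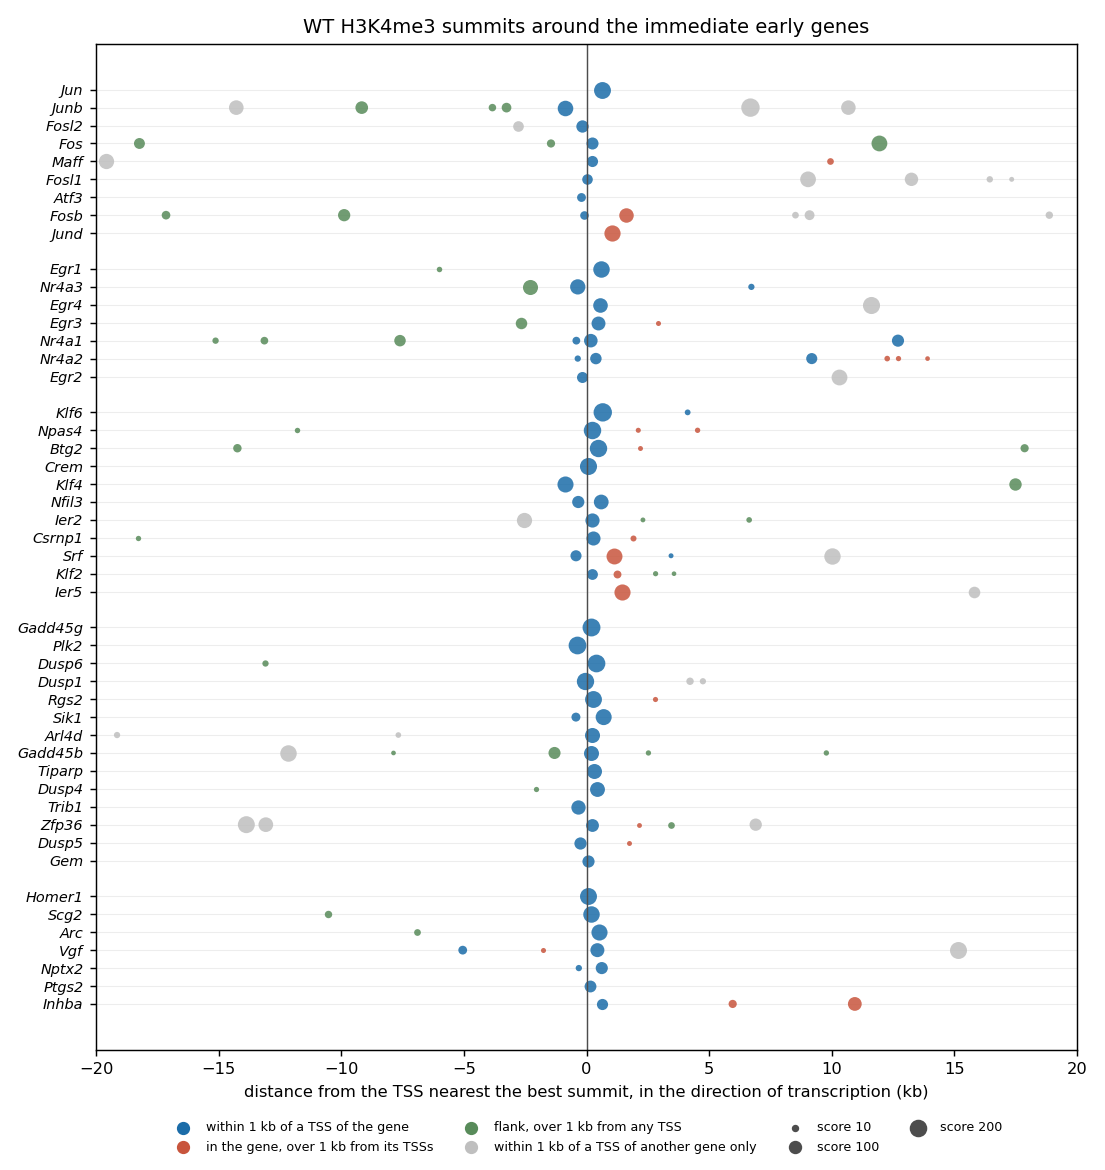
WT H3K4me3 summits within 20 kb of the TSS nearest the best promoter summit of each immediate early gene (the only TSS for Jund and Ier5). The x axis is the distance in kb along the direction of transcription, point area grows with the score, and colours separate promoter, gene body and flank summits from those at the TSS of another gene alone. Fos has a large flank point near 12 kb, and Fosb, Jund, Srf, Ier5 and Inhba have a body point larger than their promoter point or in place of it.

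The other transcription regulators held the highest promoter of all the early genes. Klf6, a Krüppel-like zinc-finger factor, scored 278, higher than 97.3% of marked genes. Npas4, an activity-dependent factor that is largely confined to neurons and shapes inhibitory synapses, scored 249.5, higher than 86.9%. Btg2, an antiproliferative cofactor of mRNA decay, scored 248, and Crem, a CREB relative, 238. The neuron-specific Npas4 thus scored above Fos. Klf4 scored 209, Nfil3, a leucine-zipper repressor, 174, and Ier2, a nuclear early response protein, 159. Csrnp1, a nuclear protein rich in cysteine and serine, scored 157, at a summit shared with the antisense gene 1700019L13Rik. At the low end, Klf2 scored 85.7 and Srf 90.8.

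Srf and Ier5 repeated the pattern of Fosb and Jund. Srf, the factor that binds the CArG box, had its strongest summit, 206, at chr17:46555056 in an intron, 1119 bp downstream of its 5′ end, and that position is 7 bp from a RefSeq start. Ier5, a nuclear early response protein, had no promoter summit and a body summit of 211 at chr1:155098175, 1461 bp from its TSS. With Inhba, 5 of the 48 genes (10.4%) had a body summit above their best promoter summit or in its absence, against 4.58% of all protein-coding genes. Crem had a summit of 138 far inside the gene, 80 bp from an internal TSS and 56750 bp from its 5′ end. An internal promoter of Crem is known to make the repressor ICER. The Klf4 flank held 1 summit of 117.6, 12156 bp past its 3′ end, and the Btg2 flanks held 41.9 and 45.3. The Btg2 summit of 41.9 lay 311 bp from a RefSeq start.

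The phosphatases and feedback regulators include genes that damp the signal that induces them, and all 14 had a promoter summit. Gadd45g scored 263 and Gadd45b 179.9, 2 stress-response proteins linked to active DNA demethylation. Plk2, a kinase of synaptic scaling, scored 259. Of the dual-specificity phosphatases that switch off MAP kinases, Dusp6 scored 258, Dusp1 246, Dusp4 177 and Dusp5 114.1. The family thus ran from 91.6% (Dusp6) down to 21.8% (Dusp5) in the share of marked genes exceeded. Rgs2, which shortens G protein signals, scored 232, and Sik1, the kinase that holds CREB coactivators out of the nucleus, 208. Arl4d, a small GTPase, scored 181, Tiparp, an ADP-ribosyltransferase, 179.8, and Trib1, a pseudokinase, 162. Zfp36, which speeds the decay of AU-rich mRNAs, scored 128. The lowest of the group, below Dusp5, was Gem, a small GTPase that inhibits calcium channels, at 112.6. Even that lowest score was above those of 5 of the 8 marked AP-1 subunits and of 2 of the 7 EGR and NR4A genes.

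Dusp1 had a further promoter summit, 221 at chr17:26561993, 135 bp from the outermost Dusp1 TSS, where Dusp1 overlaps Ergic1, and within 1 kb of an Ergic1 TSS. It was counted for Dusp1 by position alone. The flanks of this group were weakly marked. Gadd45b had 4 flank summits, of which 1, at 1217 bp upstream, scored 110.7 and the others at most 8.20. Dusp4, Dusp6, Trib1 and Zfp36 had 1 each, between 6.52 and 22.4.

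The synaptic and secreted effectors all had a promoter summit, and they split by score. Homer1, a postsynaptic scaffold whose short form is made upon activity, scored 234, Scg2, a granule protein and peptide precursor, 221, and Arc, which governs the removal of AMPA receptors, 210.4. These 3 lay above the median of marked genes. Vgf, a neuropeptide precursor, scored 154, Nptx2, a pentraxin that gathers AMPA receptors, 111.9, Ptgs2, a cyclooxygenase, 106, and Inhba, the subunit of activin A, 92.4. The 3 lowest each exceeded no more than 21.3% of marked genes. Inhba had a stronger summit of 149.6 inside the gene at chr13:16022790, 10939 bp from its 5′ end and 570 bp from the TSS of the pseudogene B230303A05Rik. Arc had 1 flank summit of 22.9 at 6902 bp upstream, and Scg2 1 of 31.3 at 10447 bp upstream.

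Few best summits were shared with a neighbour. At 7 of 46 genes (15.2%) the best promoter summit was also within 1 kb of a TSS of another gene, against 30.2% of all marked genes. The pairs were Jun with Junos, Crem with Gm6225, Csrnp1 with 1700019L13Rik, Tiparp with 4931440P22Rik, Zfp36 with Gm44710, Dusp5 with AC137853.2 and Ptgs2 with Ptgs2os. None of the 7 partners is annotated as a protein-coding gene, and the list cannot say to which gene of a pair such a summit belongs.

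Away from the promoter, a summit in the gene body was present at 16 of the 48 genes (33.3%), against 14.7% of all protein-coding genes, and a summit in the 20 kb flanks at 20 (41.7%), against 15.7%. Among genes with a promoter summit the shares were 30.4% against 18.2% for body summits and 43.5% against 18.9% for flank summits. The body count rests on where the promoter ends, since with a promoter window of 3 kb it was 3 of 48, against 9.52% of all genes. The body summits were all in genes of up to 20 kb. Early genes are compact, with a median length of 7158 bp, where that of all protein-coding genes was 17425 bp. Of the 16 early genes of up to 5 kb, 6 (37.5%) had a body summit, against 4.11% of all genes of that length, and 10 of the 24 between 5 and 20 kb (41.7%, against 8.63%). None of the 8 longer ones did, against 23.5%. Flank summits were present at 9 of 16 (56.2%, against 16%), 9 of 24 (37.5%, against 17.4%) and 2 of 8 (25%, against 14.4%). These shares by length are not matched for a promoter summit. Up to 5 kb, 14 of 16 early genes had one, but only 1514 of all 4141 genes. Between 5 and 20 kb these were 24 of 24 and 4463 of 7638. Shares by length among marked genes alone were not computed. Most body summits were weak, with a median score of 9.37 over the 20 of them, beside 14.3 over the body summits of all protein-coding genes. The 33 flank summits had a median of 31.3, beside 16.5 for all, and 8 genes (16.7%) had a flank summit of 50 or more, against 4.54%. Those 8 were Fos, Fosb, Junb, Nr4a1, Nr4a3, Egr3, Klf4 and Gadd45b. By role they were 3 of 9 AP-1 subunits, 3 of 7 EGR and NR4A genes and 1 of 11 other transcription regulators. The phosphatases and feedback regulators held 1 of 14, and the synaptic and secreted effectors 0 of 7.

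**Figure D4:**
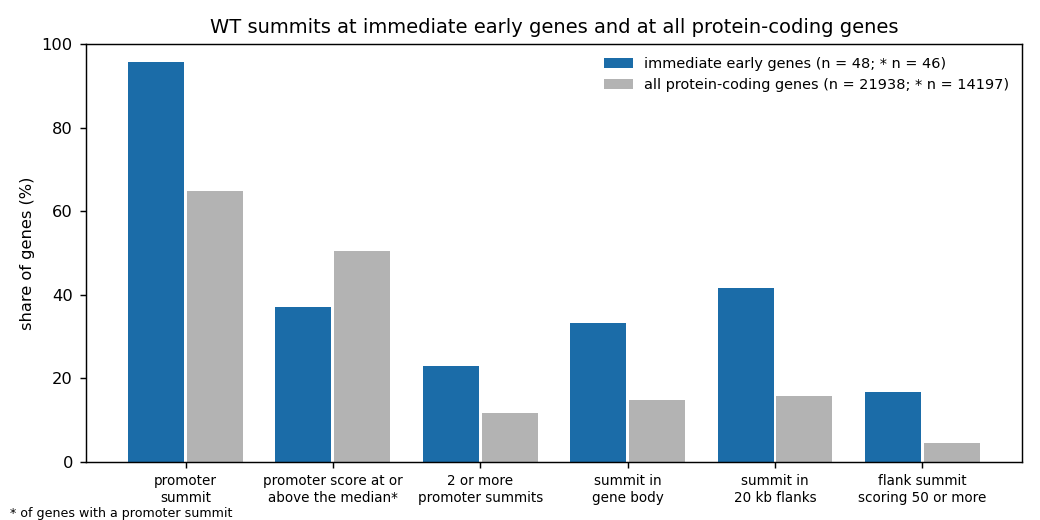
Share of genes with each kind of WT summit. Blue bars are the 48 immediate early genes and grey bars all 21938 protein-coding genes, except for the promoter score, which is over the 46 and 14197 genes with a promoter summit, and the y axis is the share in percent. The early genes are the higher bar in every pair but that of the promoter score, where they stand at 37% against 50.5%.

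Of the 33 flank summits, 22 (66.7%) lay upstream, at 15 genes, and 11 downstream, at 8 genes, where 45.7% of the 4518 flank summits of all protein-coding genes lay upstream. Within 3 kb upstream of the gene were 7 (21.2%, against 6.29%). The median score of the whole list, 102.3, was reached by 6 summits (18.2%, against 12.5% of all flank summits) at 6 genes, those of Fos, Fosb, Junb, Nr4a3, Klf4 and Gadd45b. Of the 48 genes, 8 (16.7%, against 3.52% of all protein-coding genes) had 2 or more flank summits, and 4 (8.33%, against 0.985%) had 3 or more, namely Fos, Junb, Nr4a1 and Gadd45b. Another 32 summits in reach of the early genes were at TSSs of neighbouring genes alone and were not counted for them.

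The early genes were then set beside the genes above and below them in the pathway. Over all protein-coding genes, 64.7% had a promoter summit, and 50.5% of the marked ones were at or above the median of marked genes. Of 21 upstream regulators, the receptors, channels, kinases and transcription factors that carry the signal to the early genes, all 21 had a promoter summit, with a median best score of 229, and 16 were at or above the median of marked genes. Creb1, which encodes CREB, scored 159 and Elk1, an SRF partner, 133, the lowest of the list, while Mef2d scored 275. Of 13 late activity genes, which are induced after the early ones, 11 had a promoter summit, with a median of 123, and 2 were at or above that level. Bdnf, the neurotrophin gene, scored 123, Syt4, a vesicle protein, 230.4, and Pdyn, the dynorphin precursor, 25.02, and Mmp9 and Crh had no promoter summit. All 12 housekeeping genes had one, with a median of 216, and 7 were at or above that level. The median of the early genes, 172, thus lay between those of the late activity genes and the housekeeping genes, and the ranges of all 4 lists overlapped.

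**Figure D5:**
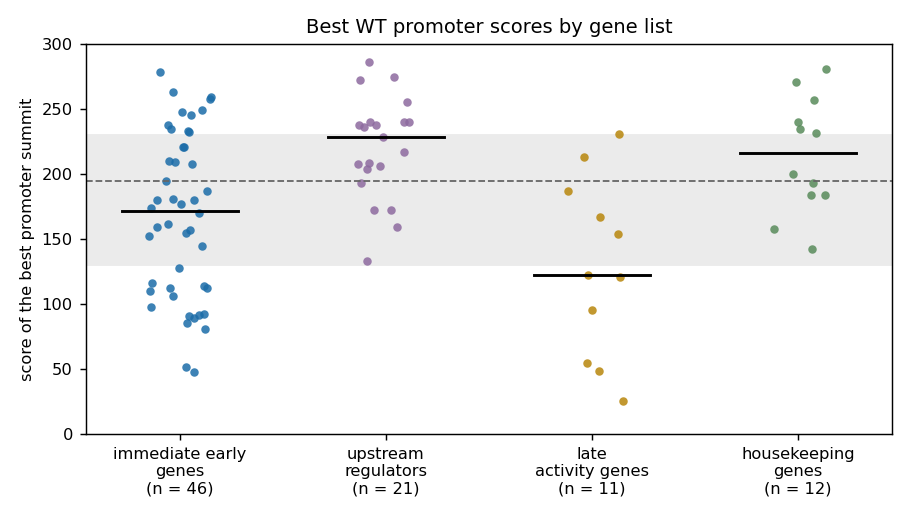
Best WT promoter scores of the immediate early genes and of genes above and below them in the pathway. Each point is 1 gene with a promoter summit, black bars are medians, the y axis is the score (read as −log10 q), and the band and dashed line are the quartiles and median of all marked protein-coding genes. The medians stand at 172, 229, 123 and 216 from left to right.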

How the data were processed

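The series holds 11 H3K4me3 ChIP-seq and 4 input samples of mouse amygdala. The authors digested chromatin with micrococcal nuclease, aligned reads to mm10 with Bowtie, kept unique alignments with at most 2 mismatches and called peaks with MACS2 2.1.0.20140616. The deposited WT list pools both mice and gives summits with a score, which was taken as −log10 of the q-value, although the list does not name its scale. Depth is not given by the list. The mutant samples were not analysed here.

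Summits on chromosomes 1 to 19, X and Y (24139 of 24162) were joined to GENCODE M21 genes in Python 3.11.15 with pandas 2.3.3, numpy 2.4.6 and pysam 0.24.0, and figures were drawn with matplotlib 3.10.9. A promoter summit lay within 1 kb of any TSS of a gene, a body summit inside the gene beyond that, and a flank summit within 20 kb of the gene and over 1 kb from every TSS of any gene. Ranks are among protein-coding genes with a promoter summit. Promoter sequences are RefSeq windows on GRCm38, and all 36 equalled the genome. The assignment of promoter and body summits was tested on simulated summits planted at genes with a single TSS. Genes with several TSSs, flank summits and shared summits were not covered by that test.

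The members, role groups and lists were chosen with earlier results of these data known. Every member could be named. Counts of body summits above the promoter summit, of flank scores of 50 or more, of the number and side of flank summits, of upstream and far downstream best summits, by gene length and over windows of marked genes were added after values had been seen. Alternatives covered the window, TSSs, score threshold, joined summits, flank and sequence window.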

Additional observations from a re-analysis of the deposited data

How the results depend on the processing

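Of 93 values under alternative settings, 75 stayed within 1.5 times the count or within the interval of the median, and 18 did not. Genes with a promoter summit numbered from 36 (outermost TSS alone) to 48 (3 kb window). With a promoter window of 500 bp, 11 of 39 marked genes had a high score (50% of all marked genes), 4 of 48 had 2 or more promoter summits (7.59% of all genes, so that the excess was all but lost) and 25 a body summit (21.6%). With 3 kb, 26 had 2 or more promoter summits (17.7%), 11 shared their best summit (38.6% of marked genes) and 3 had a body summit (9.52%), a share below that of all genes. With TSSs of protein-coding transcripts alone, 0 best summits were shared (17.2%). With the outermost TSS alone, 5 genes had 2 or more promoter summits (4.36%) and 13 of 21 upstream regulators had one (58.2%). The median offset of the early genes there, 248 bp, stayed within its interval but fell below the 276 bp of all marked genes. With only the summits that reach the median score of the list, 4 genes had 2 or more promoter summits (4.27%), 5 a body summit (3.22%), 6 a flank summit (2.37%) and 7 of 13 late activity genes a promoter summit (52%). Flanks of 10 kb left 13 genes (8.72%). With 1000 bases before the start, TATAAA was found at 14 of 36 genes, now a smaller share (38.9%) than in all windows (44.9%). The AP-1 motif was found at 8 (22.2%, against 24.4%), the CArG box at 8 (22.2%, against 5.69%) and the MEF2 motif at 10 (27.8%, against 14.6%). Excluding summits near RefSeq starts, chosen after seeing the data, left 20 genes with a flank summit (13.9%). No paired analysis was possible because both WT mice were deposited as 1 list, and for the same reason no replicate could be left out.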
